A study of Mus musculus with 24 samples.

Results

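The neuromuscular junction genes described here are 10 of the 19057 genes named by a probe on the array: the kinase gene Musk, the acetylcholine receptor subunit genes Chrna1, Chrnb1, Chrnd, Chrne and Chrng, and Ache, Rapsn, Colq and Agrn. Every probe annotated to 1 of these symbols was taken, which gave 19 of 45281 probes. A probe was tested if it was detected above the negative control beads (detection p under 0.05) on at least 6 of the 24 arrays. That left 13 junction probes of 8 genes, among 21788 probes in all.

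Muscle was taken from female mice aged 5 weeks, from the gastrocnemius-soleus complex, and hybridised to Illumina mouse bead arrays. The 4 groups were transgenic mice overexpressing the alpha7BX2 integrin after a run (TG run), transgenic mice that stayed sedentary (TG rest), wild type mice after a run (WT run) and sedentary wild type mice (WT rest), with 6 arrays in each. The run was a single 40 min bout on a treadmill sloping 20° downhill at 17 m/min, reached from 10 m/min over the first 2 min, and muscle was frozen 3 h later. The comparisons ask which transcripts differ after 1 bout of lengthening contractions, and whether extra integrin changes this. The sources used here do not give the promoter that drives the transgene. The 2 Itga7 probes differed between TG and WT by a log2 difference of 0.11 (SE 0.22) and 0.06 (SE 0.23) as the mean of both exercise states (limma, adjusted p above 0.9999 for both), and whether these probes read the transgene is not known here.

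Nerve meets muscle fibre at the neuromuscular junction. Agrin released by the motor nerve binds Lrp4 on the fibre, which activates the receptor tyrosine kinase MuSK. MuSK then drives rapsyn to cluster acetylcholine receptors under the nerve ending. The mature receptor is built of alpha, beta, delta and epsilon chains, the fetal one carries gamma in place of epsilon, and acetylcholinesterase, anchored by the collagen tail ColQ, ends the signal. In innervated muscle, only the few nuclei beneath the ending strongly transcribe Musk and the subunit genes of the mature receptor. For some junction genes, loss of nerve activity raises transcription along the whole fibre through E-boxes, which myogenic factors bind. N-boxes bound by Ets factors serve transcription at the synapse, where signals from the nerve act.

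The stretches upstream of Musk, Chrna1, Chrne and Chrng are shown because Musk differed most with the run, Chrna1 and Chrne shared much of its array-to-array variation, and Chrng, the fetal subunit gene, shared little of it. Each is the 250 bases before the annotated start of the gene, 5′ to 3′ on the gene's strand, from RefSeq on GRCm38.p6. Capitals mark E-boxes (CANNTG) and, in Chrne, 1 N-box (CCGGAA). Both motifs were searched on both strands, CANNTG reads alike on both, and the N-box also counts as TTCCGG.
Musk, chr4:58285712-58285961, plus strand: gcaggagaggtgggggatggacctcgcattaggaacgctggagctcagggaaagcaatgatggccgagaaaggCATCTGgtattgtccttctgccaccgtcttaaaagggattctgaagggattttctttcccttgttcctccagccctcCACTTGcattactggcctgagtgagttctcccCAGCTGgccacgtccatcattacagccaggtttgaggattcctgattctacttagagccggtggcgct
Chrna1, chr2:73580339-73580588, minus strand: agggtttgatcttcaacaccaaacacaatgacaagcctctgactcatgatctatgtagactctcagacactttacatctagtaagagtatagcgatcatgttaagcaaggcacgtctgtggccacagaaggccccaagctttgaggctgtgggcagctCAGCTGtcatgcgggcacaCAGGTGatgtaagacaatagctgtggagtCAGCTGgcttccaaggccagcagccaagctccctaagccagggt
Chrne, chr11:70619195-70619444, minus strand: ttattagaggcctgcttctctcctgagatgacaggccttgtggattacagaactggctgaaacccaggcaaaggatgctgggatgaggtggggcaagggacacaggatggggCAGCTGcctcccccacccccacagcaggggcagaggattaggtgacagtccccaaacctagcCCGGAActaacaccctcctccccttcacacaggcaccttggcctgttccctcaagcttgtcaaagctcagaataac
Chrng, chr1:87205561-87205810, plus strand: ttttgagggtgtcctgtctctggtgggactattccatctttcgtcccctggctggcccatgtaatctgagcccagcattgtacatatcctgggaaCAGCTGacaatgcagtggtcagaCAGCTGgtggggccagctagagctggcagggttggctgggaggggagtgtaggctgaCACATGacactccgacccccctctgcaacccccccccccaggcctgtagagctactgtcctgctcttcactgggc
Musk, Chrna1 and Chrng each held 3 E-boxes in this window, and so did Chrnb1, which is not shown. Chrne held 1 E-box and 1 N-box. Of 32851 promoter windows of the same length, 66.2% held at least 1 CANNTG, 12.2% held 3 or more and 12.0% held an N-box. The CAGCTG form stood in all 4 windows shown, at 68 to 63 bases before the start in Musk. It was absent from the windows of Chrnb1, Ache and Agrn, which are not shown, and 13.0% of the 32851 windows held it. A match of letters is a description and not a binding site. The table held 7 of the 10 genes, and windows for Chrnd, Rapsn and Colq were not used here.

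Musk was the junction gene whose level differed most with the run. Its probe ILMN_3102277 was detected on all 24 arrays. In TG mice its log2 signal had a lowest value of 6.63, a median of 6.98 and a highest of 7.90 after the run, against 5.24, 6.30 and 7.15 at rest. In WT mice it was 6.29, 7.56 and 7.98 after the run, against 5.83, 6.56 and 6.77 at rest. All 6 TG run arrays lay above 5 of the 6 TG rest arrays, and 4 of the 6 WT run arrays lay above every WT rest array, so both pairs of groups overlapped.

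**Figure D1:**
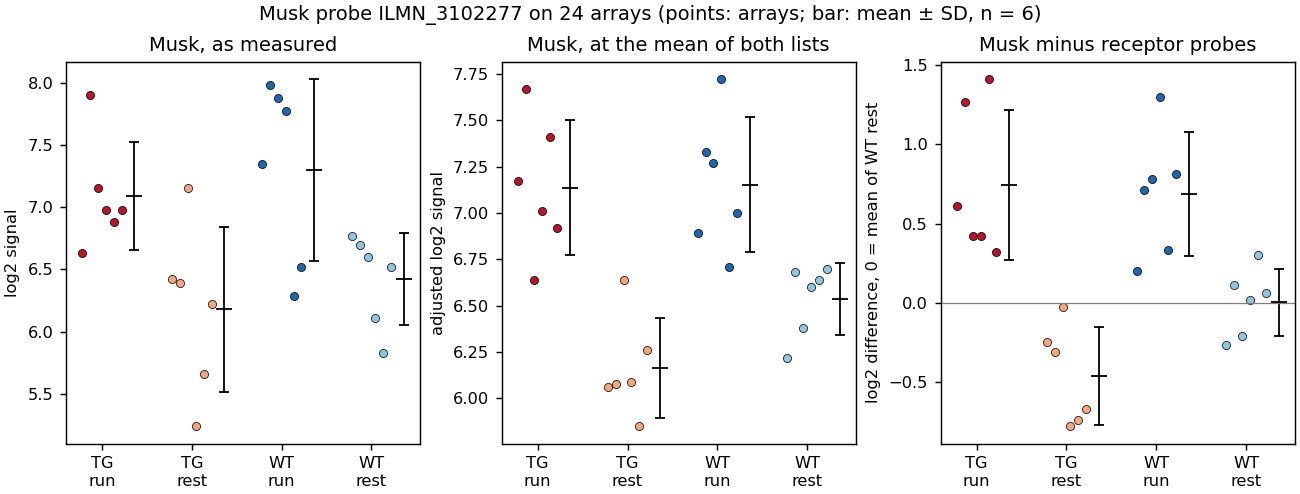
Musk probe ILMN_3102277 on 24 arrays, 6 per group, as measured log2 signal (left), as log2 signal at the mean of the slow fibre and lymphocyte lists (middle) and as its log2 difference from the mean of 5 receptor subunit probes (right), with bars for mean ± SD. The run groups lie higher than their rest groups in each panel, with least overlap in the middle panel, where the lowest WT run array stands at 6.71 and the highest WT rest array at 6.70. The share of all probes that separate in these ways was not computed.

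The mean log2 signal of Musk was 7.09 ± 0.44 in TG run and 6.18 ± 0.66 in TG rest (SD, n = 6 each), a log2 difference of 0.91 (SE 0.31) or 1.88-fold. In WT it was 7.30 ± 0.73 after the run and 6.42 ± 0.37 at rest, a log2 difference of 0.88 (SE 0.31) or 1.84-fold. With replicate number as a block the WT difference was 0.50, and with no background correction the differences were 0.40 in TG and 0.47 in WT. The mean of both genotypes, without these changes, was 0.89 (SE 0.22), with a 95% confidence interval of 0.44 to 1.35, which ranked 25 of 21788 probes by p, and it was 0.43 with no background correction. Fitted with limma and adjusted over all probes, none of the 3 passed 0.05 (adjusted p = 0.889 in TG, 0.9998 in WT and 0.416 for the mean). Taken alone, in exact permutation tests of arrays (two-sided, unadjusted), the difference had p = 0.0152 in TG, 0.0325 in WT and 0.000918 for the mean of both. Such tests were run for all 13 tested junction probes in every comparison except the difference in response. Among so many tests some p under 0.05 arise by chance, and no share over all probes was computed. The difference between genotypes in the run response of Musk was 0.03 (SE 0.44, interval −0.88 to 0.94, adjusted p = 0.991), so a large difference in either direction lay within its error.

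Arrays differed widely in genes of slow fibres and of lymphocytes, whatever the group. In a fit with both lists, Musk moved with the first. The slow fibre list, 10 of 11 genes measured, led by the myosin light chain genes Myl2 and Myl3, averaged 12.13 ± 0.66 in TG run, 12.16 ± 0.84 in TG rest, 12.41 ± 0.77 in WT run and 11.98 ± 0.80 in WT rest (log2, SD, n = 6 each). Single arrays ranged from 10.79 to 13.20. The lymphocyte list, 8 of 13 genes measured, led by Cd79b and Cd3d, lay between 4.79 and 5.39 on 13 arrays and between 7.29 and 10.18 on the other 11. The low arrays were 2 of 6 in TG run, 4 in TG rest, 4 in WT run and 3 in WT rest. In whole muscle, fewer cells of a type and less RNA per cell cannot be told apart.

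With both list means as covariates, Musk rose after the run by a log2 difference of 0.80 (SE 0.13, interval 0.53 to 1.06), or 1.74-fold, as the mean of both genotypes (limma, adjusted p = 0.00865). It rose by 0.97 (SE 0.18, adjusted p = 0.0413) in TG, and the difference was 0.62 (SE 0.18, adjusted p = 0.813) in WT. Set to the mean of both lists, the log2 signal of Musk spanned 6.64 to 7.67 in TG run against 5.85 to 6.64 in TG rest, and 6.71 to 7.72 in WT run against 6.22 to 6.70 in WT rest. All 6 WT run arrays then lay above all 6 WT rest arrays, at the closest 6.71 against 6.70. The share of all probes whose groups separate in this way was not computed, so how unusual this separation is cannot be said. The difference of the response between genotypes was 0.35 (SE 0.25, adjusted p = 0.993). The lists used as covariates were chosen with earlier results of these data known. Without them, Musk was not called in any of these comparisons.

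The call for the mean of both genotypes needed the slow fibre list (adjusted p = 0.00941 with it alone and 0.0643 with the lymphocyte list alone) and held without any 1 of the 24 arrays (0.00408 to 0.0439). The call in TG held in 9 of the 24 such fits and was lost in the others, with adjusted p up to 0.103 without TG rest replicate 4. On the 13 arrays low in lymphocyte genes, the mean difference was 0.89 (SE 0.21, adjusted p = 0.909).

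The second Musk probe, ILMN_1259616, is annotated to another transcript variant and sat near background. It was detected on 4 of 6 TG run, 1 of 6 TG rest, 3 of 6 WT run and 1 of 6 WT rest arrays, so it passed the filter mainly through the run groups. Its mean log2 signal was 5.11 ± 0.24 in TG run, 4.97 ± 0.30 in TG rest, 5.08 ± 0.34 in WT run and 4.82 ± 0.38 in WT rest (SD, n = 6 each). The mean run difference was 0.20 (SE 0.13, adjusted p = 0.998), without a call also with covariates (adjusted p = 0.622). The filter fell between this probe, detected on 9 arrays, and the third Chrna1 probe, detected on 2.

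Agrn, which encodes agrin, was measured by 1 probe on all 24 arrays and varied little. Its log2 signal had a lowest, median and highest value of 10.05, 10.46 and 10.81 in TG run, 10.19, 10.46 and 10.80 in TG rest, 9.92, 10.29 and 10.60 in WT run, and 10.03, 10.33 and 10.60 in WT rest. The groups overlapped almost fully. The mean run difference was −0.04 (SE 0.10, interval −0.25 to 0.16, adjusted p = 0.998), an interval that does not reach the difference seen in Musk. Agrin of muscle fibres and agrin of the nerve are forms of 1 gene, and motor neuron cell bodies, which make the nerve form, lie in the spinal cord.

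**Figure D2:**
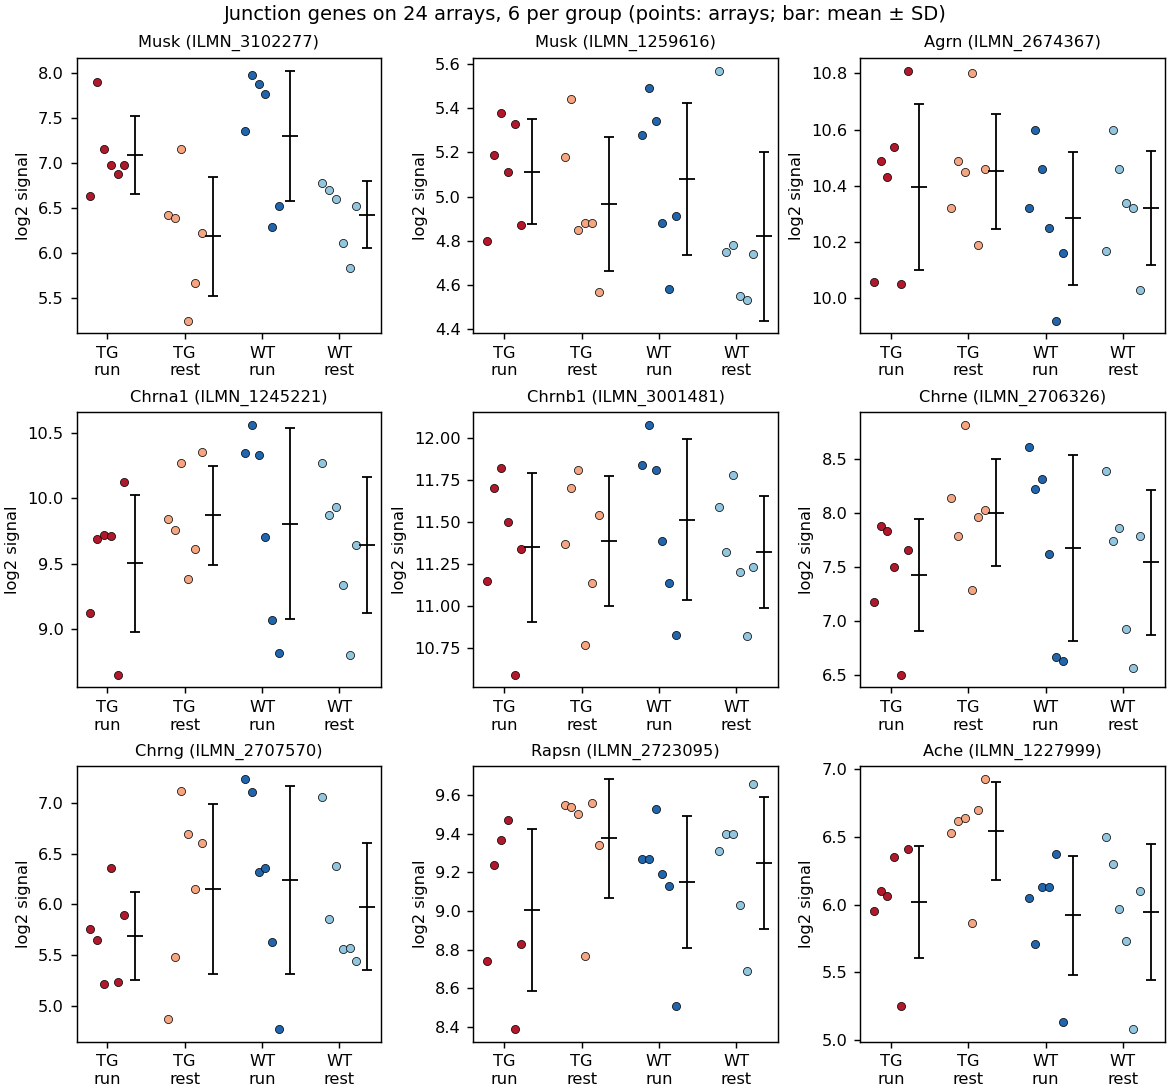
Log2 signal of 9 junction probes, 1 for each measured gene and both of Musk, on 24 arrays, with points for arrays and bars for mean ± SD (n = 6 per group). Musk probe ILMN_3102277 shows both run groups shifted above their rest groups with overlap, TG rest lies high for Ache, and the groups overlap widely for Agrn, Chrna1, Chrnb1 and Chrng.

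The mean run differences of the receptor subunit genes lay nearer to 0 than that of Musk. Chrna1, the ligand-binding alpha subunit, had 2 tested probes. Probe ILMN_1245221 spanned 8.65 to 10.12 in TG run (median 9.70), 9.38 to 10.35 in TG rest (median 9.80), 8.82 to 10.56 in WT run (median 10.01) and 8.80 to 10.27 in WT rest (median 9.75). The groups overlapped, and the mean run difference was −0.10 (SE 0.21) for this probe and −0.08 (SE 0.22) for ILMN_2733656. The third probe, ILMN_1239269, was detected on 2 arrays and not tested.

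Chrnb1, the beta subunit, spanned 10.59 to 11.82 in TG run (median 11.42), 10.77 to 11.81 in TG rest (median 11.45), 10.83 to 12.08 in WT run (median 11.60) and 10.82 to 11.78 in WT rest (median 11.28) with probe ILMN_3001481. Its mean run difference was 0.08 (SE 0.16), and 0.06 (SE 0.23) with ILMN_2685921. The 4 groups could hardly be told apart by this gene.

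Chrne, the epsilon subunit of the adult receptor, spanned 6.50 to 7.88 in TG run (median 7.58), 7.29 to 8.82 in TG rest (median 8.00), 6.63 to 8.61 in WT run (median 7.92) and 6.56 to 8.39 in WT rest (median 7.76). TG run had the lowest median and TG rest the highest. Its run difference was −0.58 (SE 0.35, exact permutation p = 0.0693) in TG and 0.13 (SE 0.35, exact p = 0.747) in WT. The difference between these, −0.71, had an SE of 0.50 and an adjusted p of 0.935. With both list means as covariates it was −0.40 (SE 0.15, adjusted p = 0.270) in TG and −0.13 (SE 0.15) in WT.

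Chrng, the gamma subunit of the fetal receptor, was detected on 22 of 24 arrays by probe ILMN_2707570 and on 0 of 24 by ILMN_1213304, so its probes disagree. The first spanned 5.21 to 6.36 in TG run, 4.87 to 7.12 in TG rest, 4.77 to 7.24 in WT run and 5.44 to 7.06 in WT rest. Its mean run difference was −0.10 (SE 0.28, interval −0.69 to 0.48), the widest interval among the junction probes. Chrnd, the delta subunit, was detected on 0 of 24 arrays by both of its probes, with log2 signals of 4.36 to 4.89, and no comparison was made for it. Beside this fetal subunit gene, the list of fetal myosin and actin genes, 3 of 4 measured and led by Actc1 and Myl4, averaged 10.28 ± 0.53 in TG run, 10.54 ± 0.39 in TG rest, 10.63 ± 0.64 in WT run and 10.48 ± 0.51 in WT rest (SD, n = 6 each).

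Rapsn encodes rapsyn, the scaffold under the clustered receptors, and its 3 probes were detected on all 24 arrays. Probe ILMN_1235236 spanned 6.28 to 7.70 in TG run (median 7.03), 7.16 to 7.90 in TG rest (median 7.62), 6.63 to 7.37 in WT run (median 7.28) and 6.44 to 8.13 in WT rest (median 7.35). In TG, 4 of the 6 run arrays lay below every rest array. All 3 probes had a negative mean run difference, of −0.37 (SE 0.18), −0.24 (SE 0.14) and −0.23 (SE 0.14), which did not pass (limma, adjusted p = 0.998 each). In TG the difference of ILMN_1235236 was −0.54 (SE 0.25, adjusted p = 0.889, exact permutation p = 0.0260). The 3 probes read 1 gene and are not independent of each other.

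Ache, the esterase gene, was detected on all 24 arrays by ILMN_1227999 and on none by ILMN_1245963. The first spanned 5.25 to 6.41 in TG run (median 6.08), 5.86 to 6.93 in TG rest (median 6.63), 5.13 to 6.37 in WT run (median 6.09) and 5.08 to 6.50 in WT rest (median 6.03). TG rest had the highest median but overlapped each other group. Of its 6 arrays, 5 lay above every WT rest array, and all 6 TG run arrays lay below its median. Between TG and WT at rest the log2 difference was 0.60 (SE 0.24, 1.52-fold, exact permutation p = 0.0346), and between TG run and TG rest it was −0.53 (SE 0.24, exact p = 0.0346). Adjusted over all probes with limma, neither passed (adjusted p = 0.9997 and 0.889). The difference between TG and WT after the run was 0.10 (SE 0.24). Set to the mean of both lists, all 6 TG rest arrays lay above all 6 WT rest arrays, with a difference of 0.51 (SE 0.19, adjusted p = 0.584). Here too the share of all probes that separate was not computed, for the measured or for the adjusted values. Colq was detected on 1 of 24 arrays, a WT run array, and was not tested.

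**Figure D3:**
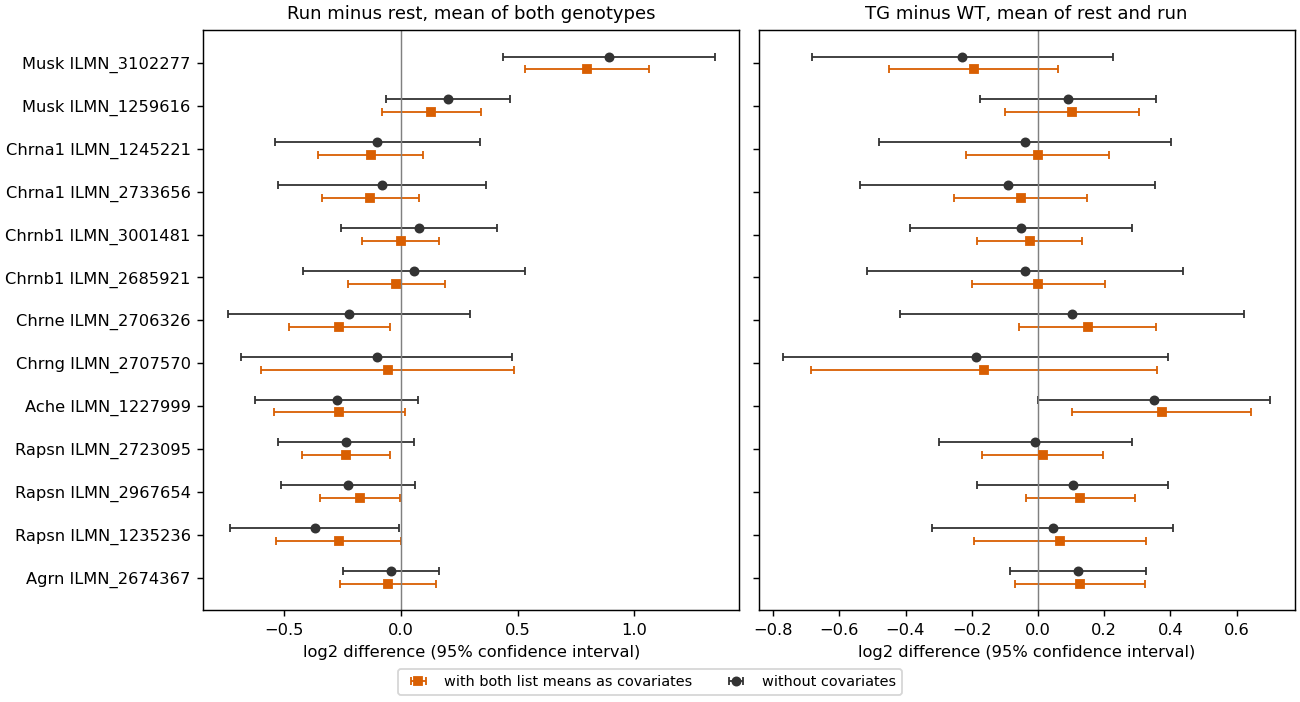
Log2 differences of the 13 tested junction probes for run minus rest (left, mean of both genotypes) and TG minus WT (right, mean of rest and run), with 95% confidence intervals, fitted without covariates (circles) and with the slow fibre and lymphocyte list means as covariates (squares). The run difference of Musk probe ILMN_3102277 lies above 0 in both fits, at 0.89 and 0.80, and every TG minus WT value lies between −0.23 and 0.37.

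Over all 13 probes, none was called for the run in TG (0.00459% of all probes were), for the run in WT (0% of all probes) or for the mean of both (0.00918%) by limma without covariates. At an unadjusted p under 0.05 there were 3, 1 and 2 of 13, where 4.44%, 2.07% and 3.79% of all probes passed. With covariates, 1 of 13, the first Musk probe, was called in TG (0.0551% of all probes) and in the mean of both (0.229%), and none in WT (0%). Leaving out 1 array moved the covariate counts over all probes: 12 became 0 to 22 in TG, and 50 became 9 to 136 in the mean of both. The median run difference of the 13 probes was −0.37 in TG and 0.16 in WT, beside −0.02 and 0.00148 over all probes. The slow fibre list had medians of −0.09 in TG and 0.41 in WT in the same fit. With covariates the junction medians were −0.21 in TG and −0.05 in WT, so the sign in WT turned. Both genotypes were compared with their own rest group, so these values share no array.

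No junction probe was called between TG and WT, at rest (0.078% of all probes), after the run (0.0872%) or as the mean of both (0.225%), and none for the difference in response (0%). At an unadjusted p under 0.05, 1 of 13 passed at rest and in the mean of both, Ache each time, and 0 of 13 after the run and in the difference in response, where 2.89%, 3.11%, 2.98% and 2.27% of all probes passed. With covariates there were again 0 calls in the 4 comparisons, where 0.151%, 0.179%, 0.592% and 0% of all probes were called at rest, after the run, in the mean of both and in the difference in response. Musk itself was −0.24 (SE 0.31) at rest, −0.21 (SE 0.31) after the run and −0.23 (SE 0.22, interval −0.68 to 0.23) in the mean of both, in TG minus WT.

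Across arrays, the slow fibre and lymphocyte lists were followed by some junction genes. Slopes on both list means came from 1 fit with the 4 groups as terms. On the slow fibre list, 7 of 13 junction probes had a called slope, all of them positive, where 25.8% of all probes had a called positive slope and 48.8% a called one. They were both probes of Musk (0.56 and 0.32 log2 per log2 unit), of Chrna1 (0.39 and 0.46) and of Chrnb1 (0.45 and 0.56), and the Chrne probe (0.50). The largest adjusted p among them was 0.00563, for the dim Musk probe. The 7 probes read 4 of the 8 measured genes. Probes of 1 gene are not independent, so 7 of 13 overstates the number of separate results beside 25.8%. Rapsn, Ache, Agrn and Chrng had slopes of −0.13 to 0.19 without a call. With replicate number as a block there were again 7 calls, but the dim Musk probe lost its call (adjusted p = 0.120) and Rapsn probe ILMN_1235236 gained a negative one, at −0.50 (SE 0.11, adjusted p = 0.00674).

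**Figure D4:**
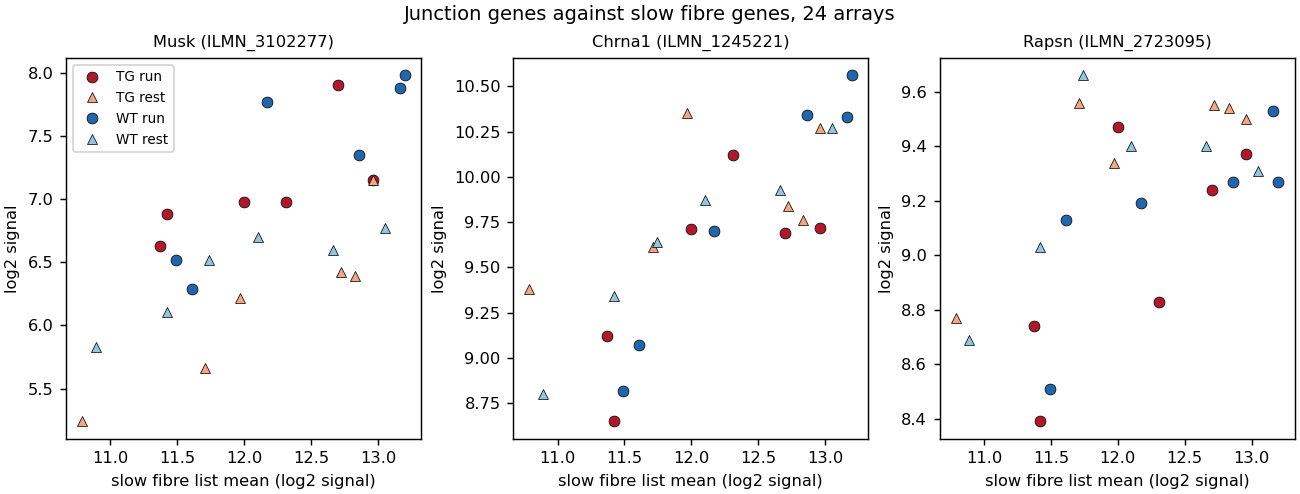
Log2 signal of Musk, Chrna1 and Rapsn probes (vertical axes) against the mean log2 signal of the slow fibre list (horizontal axes) on 24 arrays, with circles for run and triangles for rest. Musk and Chrna1 climb with the list. Most run arrays of Musk lie high among arrays of like list mean, with some overlap with rest arrays. The Rapsn probe (ILMN_2723095) correlated with the list at 0.715 in deviations from the group means. Its slope was called with this list as the only one fitted (0.33, limma, adjusted p = 6.74e-04) but not with the lymphocyte list added.

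On the lymphocyte list, 6 of 13 probes had a called slope, all negative, where 19.2% of all probes had a called negative slope and 34.1% a called one. They were the 3 Rapsn probes (−0.08, −0.13 and −0.17 log2 per log2 unit), the Chrne probe (−0.13) and both Chrna1 probes (−0.11 and −0.09). These 6 probes read 3 of the 8 measured genes, so 6 of 13 likewise overstates the number of separate results beside 19.2%. Musk had slopes of −0.03 and 0.02 without a call. These slopes were less stable than those on the slow fibre list: 2 of the 6 calls were left with median scaling and 1 with replicate number as a block.

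**Figure D5:**
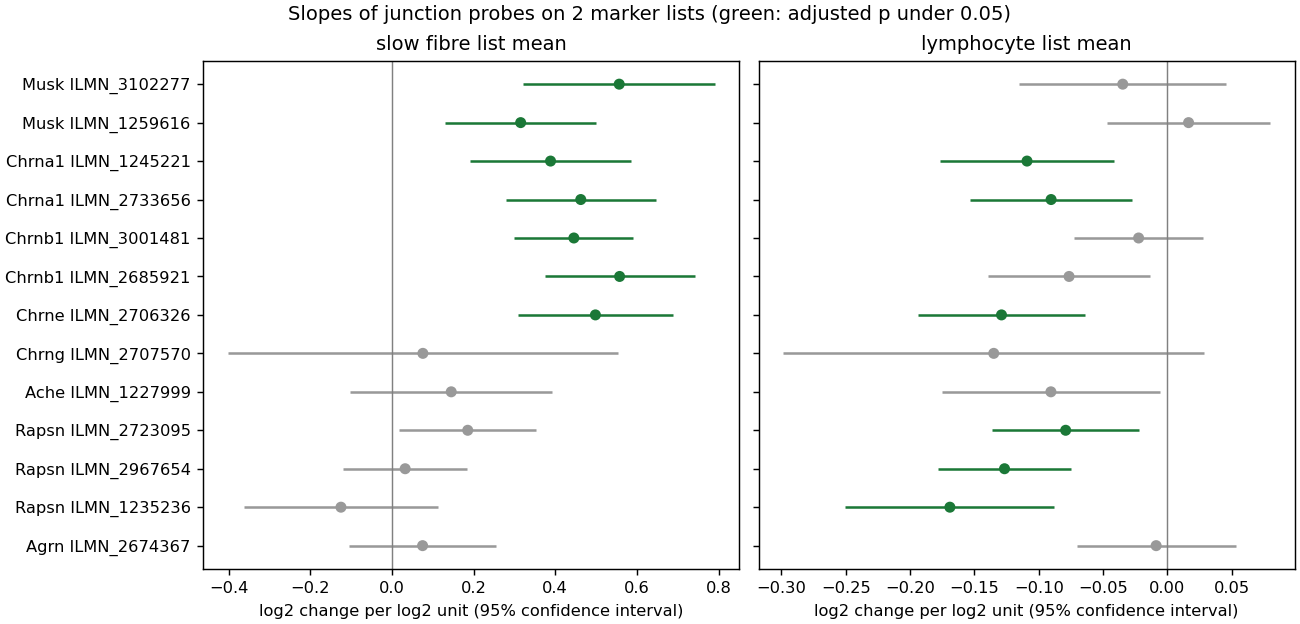
Slopes of the 13 junction probes on the slow fibre list mean (left) and the lymphocyte list mean (right), in log2 per log2 unit with 95% confidence intervals, green where the adjusted p is under 0.05. Musk, Chrna1, Chrnb1 and Chrne have called positive slopes on the left, and Rapsn, Chrne and Chrna1 have called negative slopes on the right.

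Deviations from the group means, given as a description, did not divide the genes between the lists as the fit with both did. Musk probe ILMN_3102277 correlated with the lymphocyte list at −0.608. With the slow fibre list, the Rapsn probes correlated at 0.715, 0.579 and 0.315, and Ache at 0.552. With only the lymphocyte list fitted, this Musk probe had a called slope of −0.15 (limma, adjusted p = 0.00778). With only the slow fibre list, Ache (0.31) and Rapsn probes ILMN_2723095 (0.33) and ILMN_2967654 (0.26) had called slopes. Among the 5 probes of Chrna1, Chrnb1 and Chrne, the 10 pairwise correlations over 24 arrays were 0.863 to 0.979. Musk probe ILMN_3102277 correlated with Chrne at 0.798, Chrnb1 at 0.779 and Chrna1 at 0.739, with Rapsn at 0.614, and with Ache at 0.406, Chrng at 0.377 and Agrn at 0.303. In the order of 11573 genes by likeness to Musk these stood at places 225, 353, 712, 2066, 3957, 4228 and 4787. All points share the arrays, their normalisation and the spread in slow fibre genes, with which Musk correlated at 0.836. The 5 genes most like Musk were Sipa1l2 (0.918), Gcdh (0.900), Mast2 (0.892), Rufy3 (0.891) and Lmcd1 (0.886). Their run differences were 0.17, −0.15, 0.12, 0.04 and 0.41 on the log2 scale, none called.

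Set against the 5 receptor subunit probes on the same array, Musk separated run from rest more fully than by itself. The log2 difference of Musk from their mean, with the mean of WT rest as 0, was 0.74 ± 0.47 in TG run (0.32 to 1.41) and −0.46 ± 0.31 in TG rest (−0.78 to −0.03). It was 0.69 ± 0.39 in WT run (0.20 to 1.30) and 0 ± 0.21 in WT rest (−0.27 to 0.30) (SD, n = 6 each). The TG groups did not overlap, and the WT groups overlapped slightly. The receptor probes had run differences of their own, −0.58 to −0.04 in TG and 0.13 to 0.24 in WT, none called. The measure therefore holds their differences as well as that of Musk, which widens the gap between run and rest in TG and narrows it in WT. It was built after the probes' values were seen, so it has no test. How other probes would separate after the same subtraction was not computed, so the lack of overlap in TG has no comparison.

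Around Musk, 6 lists of related genes were followed, with 48 of their 71 genes measured. For the run as the mean of both genotypes, 0 of 48 were called by limma without covariates, where 0.00918% of all probes were, or with covariates, where 0.229% were. At an unadjusted p under 0.05, 3 were higher and 1 lower without covariates, where 3.79% of all probes passed. With covariates 4 were higher and 4 lower. The share of all probes in that fit is not given here, so this count cannot be set against 3.79%. The differences given for these genes are mean run differences without covariates, on the log2 scale, with adjusted p = 0.998 for each.

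Of agrin, Lrp4 and MuSK signalling, 10 of 14 genes were measured, 4 with a positive difference. Dok7, the adaptor that activates MuSK from inside the fibre, had 5.89 ± 0.54 in TG run, 5.85 ± 0.45 in TG rest, 5.97 ± 0.44 in WT run and 5.60 ± 0.36 in WT rest (log2 signal, SD, n = 6 each), a difference of 0.20 (SE 0.18). Lrp4, the agrin receptor, had a difference of −0.13 (SE 0.12), and Crkl, an adaptor recruited by Dok7, −0.09 (SE 0.09). Of neuregulin and Ets control, 6 of 9 genes were measured, 2 with a positive difference. The Ets factor genes Etv5 and Etv4 had −0.20 (SE 0.13) and −0.17 (SE 0.25), and Gabpb1, a subunit of the N-box factor GABP, 0.09 (SE 0.14).

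Of the synaptic basal lamina and scaffold, 13 of 17 genes were measured, 5 with a positive difference. Col4a3 and Col4a4, collagen IV chains, had −0.30 (SE 0.14) and −0.23 (SE 0.13), and Utrn, the utrophin that sits opposite the nerve ending, 0.21 (SE 0.18). Of the neuronal receptor subunits, only Chrna9 and Chrna10 of 11 were measured. Chrna9 spanned 5.66 to 7.06 in TG run, 5.12 to 6.32 in TG rest, 5.73 to 8.06 in WT run and 5.33 to 7.30 in WT rest, and its difference was 0.59 (SE 0.26). Chrna10 had −0.23 (SE 0.16).

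Of genes that respond to denervation and activity, 12 of 15 were measured, 5 with a positive difference. Runx1, a transcription factor induced by denervation, had 0.55 (SE 0.22), and Myf6, the myogenic factor of mature fibres, 0.36 (SE 0.13, adjusted p = 0.0913 with covariates). Myf6 averaged 11.83 ± 0.28 in TG run, 11.45 ± 0.31 in TG rest, 11.65 ± 0.38 in WT run and 11.31 ± 0.31 in WT rest (log2 signal, SD, n = 6 each). Hdac5, a repressor that nerve activity regulates, had −0.11 (SE 0.07). Of the glycosylation enzymes linked to myasthenia, all 5 were measured, and Dpagt1, Alg2 and Gmppb had 0.09 (SE 0.09), −0.17 (SE 0.11) and −0.17 (SE 0.12).

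Between genotypes, as the mean of rest and run, 0 of the 48 genes were called without covariates (0.225% of all probes were), with 1 higher and 1 lower at an unadjusted p under 0.05 (3.11% of all probes passed). With covariates 1 was called (0.592% of all probes). That gene was Myod1, the myogenic E-box factor. Its log2 signal spanned 5.00 to 6.13 in TG run (median 5.85) against 5.64 to 7.29 in WT run (median 6.46), and 5.15 to 6.29 in TG rest (median 5.66) against 5.51 to 7.24 in WT rest (median 6.47). TG medians were lower at rest and after the run, with overlap in both. The log2 difference was −0.78 (SE 0.21, limma, adjusted p = 0.235), and with both list means as covariates Myod1 fell by 0.76 (SE 0.12, adjusted p = 0.00174) in TG. Other named values were 0.26 (SE 0.11) for Alg2, −0.28 (SE 0.16) for Gabpb2, the other GABP partner, −0.27 (SE 0.13) for Lama4, a laminin chain of the synaptic cleft, and 0.21 (SE 0.20) for Trim63, an atrophy ubiquitin ligase. Src, Dnaja3 and Erbb2, parts of MuSK and neuregulin signalling, had 0.05 (SE 0.09), −0.06 (SE 0.08) and −0.11 (SE 0.16).

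Nerve and glia were followed by their own markers. Of 10 motor nerve genes, 2 were measured, Stmn2 and Prph, and Chat, Slc18a3 and Slc5a7, which define cholinergic neurons, were not among the tested genes. The mean of the 2 was 6.61 ± 0.26 in TG run, 6.48 ± 0.25 in TG rest, 6.62 ± 0.16 in WT run and 6.67 ± 0.41 in WT rest. Schwann cell genes, 6 of 10 measured and led by Pmp22 and Mbp, averaged 9.08 ± 0.25 in TG run, 9.18 ± 0.21 in TG rest, 9.02 ± 0.37 in WT run and 9.06 ± 0.34 in WT rest. Muscle fibre genes, 9 of 10 measured and led by Tcap and Ckm, averaged 13.71 ± 0.21 in TG run, 13.88 ± 0.20 in TG rest, 13.85 ± 0.22 in WT run and 13.82 ± 0.22 in WT rest, so the markers of the labelled tissue were present in every group. Fast fibre genes, 10 of 11 measured, spanned only 14.70 to 14.92 over all arrays. Neutrophil genes, 10 of 11 measured and led by S100a8 and S100a9, averaged 6.97 ± 1.24 in TG run, 5.67 ± 0.55 in TG rest, 6.42 ± 1.06 in WT run and 6.40 ± 1.14 in WT rest (SD, n = 6 each), and their part in the junction values was not tested. Macrophage genes, 9 of 10 measured, averaged 9.42 ± 0.39 in TG run, 8.92 ± 0.55 in TG rest, 9.23 ± 0.57 in WT run and 9.33 ± 0.52 in WT rest. Adipocyte genes, 6 of 8 measured, averaged 9.51 ± 0.36 in TG run, 9.17 ± 0.50 in TG rest, 9.22 ± 0.67 in WT run and 9.54 ± 0.38 in WT rest.

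Median intensity per array was 105.2 to 137.9, and 40.2% to 46.2% of probes were detected on an array. The correlation between 2 arrays was 0.909 to 0.990. The number of arrays, 6 per group, limits the precision of all values.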

How the data were processed

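For every array, the authors deposited the linear intensity of each probe before normalisation and, per the file headers, a detection p-value set against negative control beads. The authors' own normalised log2 values stand in a separate deposited table, and the submitters' processing notes list limma 3.20.8 and R 3.1.1. No genome build, slide or scan date is given in the sources used here. Values computed here differed from those log2 values by at most 0.0269.

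Background correction and quantile normalisation of the intensities used neqc (limma 3.58.1, R 4.3.3, offset 16). Probes detected (p under 0.05) on at least 6 arrays were kept. Each of 21788 probes was fitted by itself with limma (lmFit, eBayes), with 4 group means over 24 arrays, two-sided, and Benjamini-Hochberg adjustment over all of them, called at an adjusted p under 0.05. A second fit added the array means of the slow fibre and lymphocyte lists. The fits were tested on simulated data. Of the probes, 34885 have 1 symbol in GEO's platform annotation, 18 several and 10378 none.

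Groups and replicate numbers come from the labels, which give 6 females per group. The members and lists were chosen with earlier results of these data known. All member probes are named, and from each of 6 pathway lists the 3 genes with the smallest p for the run and the 3 for genotype. The 5 genes most like Musk are those whose deviations from the group means correlate best with its brighter probe. Replicate numbers that recur between groups were checked through the correlation of their deviations. At rest, all 3 shared numbers of TG and WT correlated (0.321 to 0.655), so a fit with the number as a block was run, but in the other comparisons some did not.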

Additional observations from a re-analysis of the deposited data

Results flagged for a closer look

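Of 46 groups of 6 arrays examined for 1 array far from the rest, 2 held one, and chance gives about 1 in 20. Both were TG rest replicate 7, the array with the lowest slow fibre list mean of all (10.79, log2), which was also high in lymphocyte genes. Its Ache log2 signal (ILMN_1227999) was 5.86, where the nearest TG rest array had 6.53. Its Rapsn log2 signal (ILMN_2723095) was 8.77, where the nearest had 9.34. Without it, the run difference of Ache in TG was −0.66 on the log2 scale and the difference of Ache between TG and WT at rest was 0.74, with limma adjusted p of 0.579 and 0.844. The part of slow fibre and lymphocyte genes in these low values was not tested.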

How the results depend on the processing

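No junction probe that was called turned its direction under any alternative. Without covariates the mean run difference of Musk was 0.43 with no background correction, 0.67 with an offset of 50 and 0.98 with array weights, without a call. Calls for the run appeared only with list means as covariates: 1 probe, Musk, for the mean of both genotypes with the slow fibre list or with both lists, and 1 in TG with both lists. When 1 array was left out, with or without covariates, the junction probes called were 0 to 1 for the run in TG, 0 to 1 for the mean run difference, 0 to 1 for the mean genotype difference and 0 to 0 for the run in WT. Leaving out 1 array was run without covariates for the comparisons at rest, after the run and of the response, with 0 to 0 called, and gave 7 to 8 for the slow fibre slope and 4 to 8 for the lymphocyte slope. The mean genotype call was Ache, with covariates and without WT run replicate 6 (adjusted p = 0.0313).

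With 1 probe per gene, 4 of 8 slow fibre slopes and 3 of 8 lymphocyte slopes were called. The share of all genes called in that fit is not given here. Lymphocyte slopes called were 2 with median scaling, 1 with the replicate block and 10 with the lymphocyte list as the only covariate. Median scaling shifted the median of all probes by 0.10 in the difference in response.

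With replicate number as a block, 0 junction probes were called in each of the 7 comparisons, and 7 slow fibre slopes, where the dim Musk probe was lost and Rapsn ILMN_1235236 gained (−0.50). That pairing lowered the calls over all probes to 3 of 17 at rest, 3 of 19 after the run, 8 of 49 for the mean genotype difference and 0 of 1 for the run in TG, counts that do not say which probes. The block gave Musk a run difference of 0.64 (adjusted p = 0.537), with 0.50 in WT.

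Over all probes, counts of calls under the alternatives other than covariates with 1 array left out reached from 0 to 12 for the run in TG (main 1), 0 to 2 in WT (0), 0 to 50 for the mean run (2), 3 to 33 at rest (17), 3 to 39 after the run (19), 8 to 129 for the mean genotype (49), 5965 to 11739 for the slow fibre slope (10637) and 1437 to 8658 for the lymphocyte slope (7438). With covariates and 1 array left out, they were 0 to 22 for the run in TG, 9 (without WT rest replicate 6) to 136 (without WT run replicate 1) for the mean run, and 105 to 136 for the mean genotype. Dim probes such as the second Musk probe sit near background, where differences are compressed.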
